A study of Homo sapiens with 12 samples.

Results

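The S100 calcium-binding proteins studied here are 10 genes, S100A2, S100A6, S100A8, S100A9, S100A10, S100A11, S100A13, S100A14, S100A16 and S100P, taken by name with every probe annotated to them. They had 16 of the 47229 probes on the array, and 14 of these passed the detection filter. All 10 genes were among the 12244 genes tested, each by its brightest probe. RNA came from 6 single-cell-derived clones of PC9, an established human lung adenocarcinoma line that depends on a mutant EGFR, each measured on 2 Illumina bead arrays. Of these, B7 was labelled sensitive to gefitinib, a drug that inhibits EGFR. The 5 clones labelled tolerant were E1, E2, E3, E6 and D6. The treatment text is the same for all of them, 0.4 to 2 µM gefitinib for 14 days, while the design also describes plates that received the solvent DMSO. The labels do not say which clones came from which plates or whether cells were harvested in the drug, so response and exposure cannot be told apart. Sensitivity is represented by 1 clone, and nothing states whether the 2 arrays of a clone came from separate cultures.

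S100 proteins are small EF-hand proteins that mostly work as dimers. Inside the cell they sense calcium and bind targets such as annexins, cytoskeletal proteins and p53, and several are released and act on receptors such as RAGE (AGER) and TLR4. Most of their genes sit side by side on chromosome 1, in a region shared with genes of the cornified envelope of skin. In epithelial tumours many members are expressed by the cancer cells themselves. The calprotectin pair S100A8 and S100A9 is best known from neutrophils and is also made by inflamed epithelium.

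S100P lies on chromosome 4 (chr4:6693878-6697170, GRCh38.p14), and the other 9 members lie on chromosome 1 between S100A10 (chr1:151982915-151993859) and S100A13 (chr1:153618799-153634361). Their upstream sequences are shown for the genes whose levels differed most between clones or whose levels ran together, because the same short element sits before the start of several of them. RefSeq (GRCh38.p14) gave upstream windows for all 10 members, at 16 start sites. The lines below give the 120 bases before a start, 5′ to 3′ on the gene's strand, with matches to the searched motifs in capitals.
S100P (chr4:6693758-6693877, plus strand): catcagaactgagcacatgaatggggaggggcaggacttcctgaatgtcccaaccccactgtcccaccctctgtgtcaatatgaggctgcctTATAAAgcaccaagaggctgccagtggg
S100A8 (chr1:153391074-153391193, minus strand): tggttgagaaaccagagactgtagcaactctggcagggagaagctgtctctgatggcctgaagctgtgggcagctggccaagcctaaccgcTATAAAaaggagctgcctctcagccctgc
S100A9 (chr1:153357734-153357853, plus strand): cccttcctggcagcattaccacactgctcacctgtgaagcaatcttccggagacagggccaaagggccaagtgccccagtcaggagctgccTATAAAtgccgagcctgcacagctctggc
S100A13 (chr1:153627506-153627625, minus strand): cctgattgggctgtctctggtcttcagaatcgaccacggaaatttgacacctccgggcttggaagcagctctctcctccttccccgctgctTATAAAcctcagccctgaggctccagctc
S100A16 (chr1:153613138-153613257, minus strand): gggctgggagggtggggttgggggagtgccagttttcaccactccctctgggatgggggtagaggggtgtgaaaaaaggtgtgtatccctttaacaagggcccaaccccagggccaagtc
S100A8 and S100A13 have 3 start sites each and S100A16 has 2, and the windows shown are 1 of them. The capitals in the first 4 lines are TATAAA, the core of the TATA box, read on the gene's strand. It began 28 bases before the start of S100P and 29 bases before those starts of S100A8, S100A9 and S100A13. Of 35116 RefSeq upstream windows, 2.63% held TATAAA within the last 50 bases, against 4 of the 16 member windows. The AP-1 motif TGANTCA, searched on both strands over 250 bases, was found at 1 start of S100A2, as TGACTCA, and in 6.57% of all windows. The C/EBP motif TTGCNNAA was found at S100A11, as its reverse complement TTGGGCAA, and in 9.05% of all windows. The STAT motif TTCNNNGAA was found at no member window and in 6.57% of all windows. A match is a description of these letters, and TATAAA was added to the search after the sequences were seen.

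Values below are log2 of the normalized intensity, a scale on which 1 unit is a 2-fold difference. They compare clones for 1 probe and say nothing of 1 gene against another. The arrays differed in brightness, with 75th percentiles of the scanner signal from 80.1 on an array of D6 to 133 on an array of B7. Across genes, Pearson's r between both arrays of 1 clone was 0.995 to 0.997. All 6 epithelial markers were detected on all 12 arrays. Of the lung markers, NKX2-1 was detected on no array, and SFTPB and NAPSA on 3 and 5. Of 22 markers of myeloid, fibroblast, endothelial and lymphoid cells that had a probe, 8 were detected on no array. Of the 13 of them tested, 0 passed between clones by limma, with 4 at an unadjusted p under 0.05.

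S100P was the 1 member that passed between the tolerant clones and the sensitive one. S100A2, S100A6, S100A9, S100A10, S100A13 and S100A16 also had every tolerant array on 1 side of both B7 arrays, though S100A2 passed the detection filter through B7 alone. That share was not counted over all genes, but by clone means B7 lay above all 5 tolerant clones in 29.7% and below them in 29.5%. S100P codes for a secreted and cytoplasmic protein that binds ezrin and the receptor RAGE and is made by many carcinomas. The B7 arrays stood at 11.15 and 11.12. D6 read 13.63 and 13.69, E1 read 14.14 and 14.15, E2 read 13.04 and 13.07, E3 read 12.95 and 13.06, and E6 read 14.16 and 13.99. Every tolerant array was above both B7 arrays, and the groups did not overlap. On the scanner scale before normalization, the B7 arrays read 2938 and 2899 intensity units, and the tolerant arrays 7968 to 18431. With the clone as the replicate, S100P rose by 2.45 ± 0.48 log2 units (SE, 5 tolerant clones against 1, limma, adjusted p = 0.0488, 95% interval 1.32 to 3.58), a 5.48-fold difference, and was higher in 5 of 5 clones. The adjusted p lies close to the threshold: over 26 alternatives the difference ranged from 2.10 to 2.60 and the adjusted p from 0.000466 to 0.103. It was lost without D6 (adjusted p = 0.102), E1 (0.0766), E3 (0.0717) or E6 (0.103), and without 1 array of D6, E3 or E6 (0.0509 to 0.0529), and with no background correction (0.0681), the authors' values (0.0735), no detection filter (0.0502) or an offset of 50 (0.054). In the same fit at the level of probes, with p adjusted over all kept probes, S100P did not pass either (limma, adjusted p = 0.0502).

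Against that, 9 of the 10 members did not pass between clones, so 1 was called higher and 0 lower. Over all genes 2.83% were called, 1.4% higher and 1.44% lower. With median scaling, which moves the median of all genes from 0.00 to -0.20, 28.6% of all called genes were higher in place of 49.3%. The median difference of the 10 members was -0.37, beside 0.00 for all genes. B7 stood above all 5 tolerant clones for 5 members (S100A2, S100A6, S100A9, S100A13 and S100A16), against 29.7% of all genes. Of these, S100A2 passed the detection filter through B7 alone, which favours B7 above the others, so its place says little. It stood below all of them for S100P and S100A10, against 29.5% of all genes. The other 3 members had B7 inside the range of the tolerant clones.

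**Figure D1:**
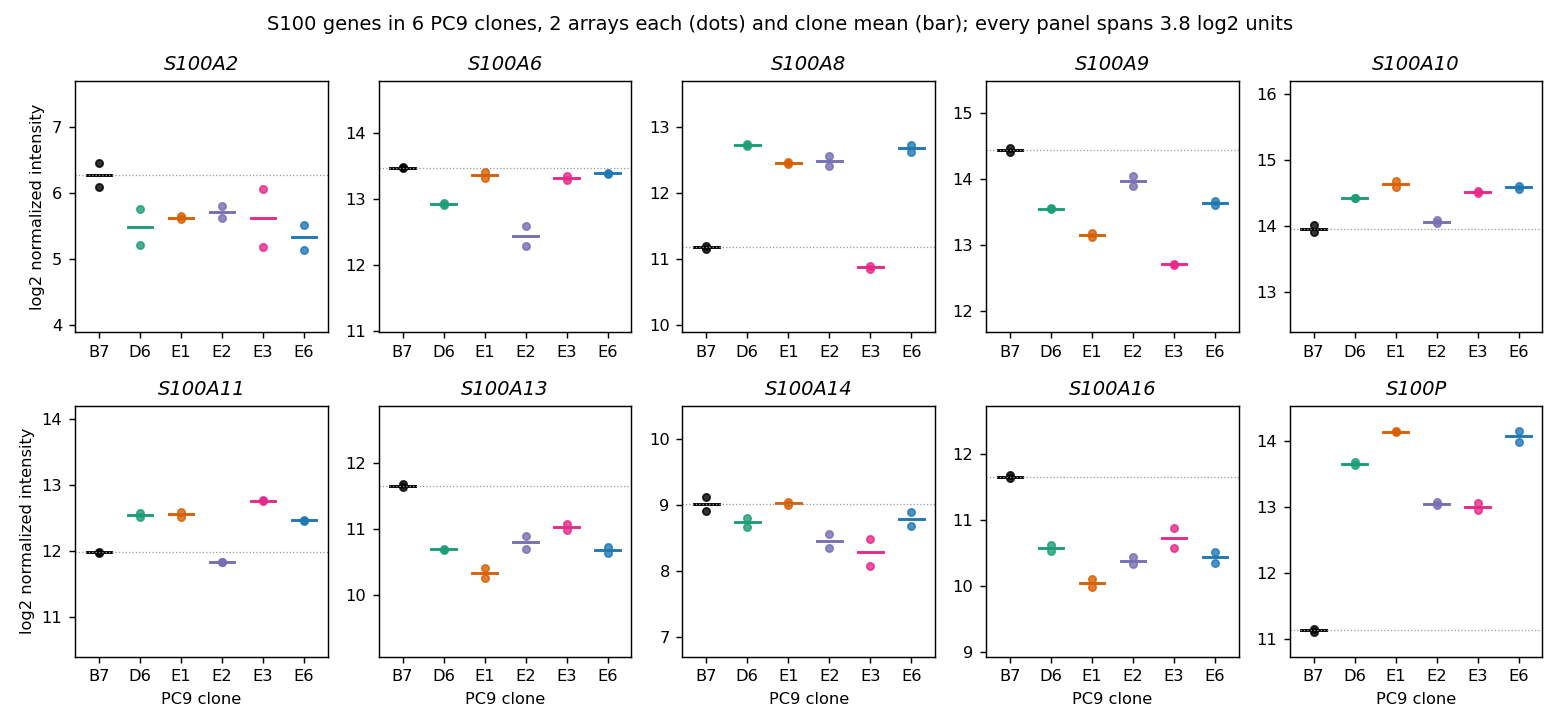
Log2 normalized intensity of the 10 S100 genes (vertical axis, each panel 3.8 log2 units high) in the 6 PC9 clones (horizontal axis). Dots are the 2 arrays of a clone, the bar is their mean and the dotted line the mean of B7. S100P sits at 11.12 to 11.15 on the B7 arrays and at 12.95 to 14.16 on the tolerant arrays, while S100A8 is low in both B7 and E3.

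The tolerant clones also differed from each other in S100P. From the highest clone down, the order of its means was E1 (14.15), E6 (14.07), D6 (13.66), E2 (13.05), E3 (its arrays at 12.95 and 13.06) and B7 (11.13). In the limma fit of all 12 arrays, the neighbours E1 and E6 did not differ beyond the spread between arrays (adjusted p = 0.522), nor did E2 and E3 (0.661). E6 was above D6 by 0.41 (adjusted p = 0.0031), and D6 was above E2 by 0.60 (adjusted p = 0.000126). The lowest tolerant clone, E3, was above B7 by 1.87 (adjusted p = 1.93e-08). This order and these steps are with quantile normalization. With median scaling S100P was above B7 by 2.62 in E6, 2.57 in E1, 1.99 in D6, 1.72 in E2 and 1.59 in E3. There E6 came before E1, D6 and E2 lay closer together, and the steps between tolerant clones were not tested. The spread behind these p-values is that between both arrays of 1 clone, which may be technical. A call between 2 clones was common at this level. Of all genes, D6 differed from E1 in 32.1%, E2 in 51.6%, E3 in 34.7% and E6 in 34.2%, and E1 differed from E2 in 54.6%, E3 in 42.8% and E6 in 40.2%. E2 differed from E3 in 40.2% and from E6 in 45.8%, E3 from E6 in 30.3%, and B7 from a tolerant clone in 47.1% (E2) to 65.5% (E1). S100P is the only member whose clone means spanned at least 2 log2 units. Among 968 other genes that spanned as much, those whose clone means ran most like it were the peptidase KLK7 (Pearson r = 0.991 over 6 clones), the retinal transporter gene ABCA4 (0.991) and the lipoprotein receptor VLDLR (0.987). Over the 5 tolerant clones alone these were 0.953, 0.951 and 0.971. As the highest of 968 correlations over few clones, these values are high by selection and are a description only. In each of the 3, as in S100P, B7 was lowest and E1 highest, with clone means from 7.97 to 10.00 for KLK7, 6.13 to 9.01 for ABCA4 and 6.31 to 8.90 for VLDLR.

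S100A8 and S100A9, whose proteins join as calprotectin, a metal-binding complex of neutrophils and inflamed epithelium, lay on opposite sides of B7 in the tolerant clones D6, E1, E2 and E6. S100A8 stood at 11.15 and 11.20 on the B7 arrays. D6 read 12.70 and 12.73, E1 read 12.47 and 12.44, E2 read 12.40 and 12.56, E3 read 10.85 and 10.89, and E6 read 12.62 and 12.72. E3 was the exception, below B7, while every array of the other 4 clones was above it. S100A9 stood at 14.40 and 14.46 on the B7 arrays. Its arrays read 13.56 and 13.54 for D6, 13.18 and 13.11 for E1, 13.89 and 14.03 for E2, 12.70 and 12.71 for E3, and 13.67 and 13.60 for E6. Here every tolerant array was below both B7 arrays, and E3 was again lowest.

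Between clones neither gene passed: S100A8 differed by 1.06 ± 0.66 (SE, limma, adjusted p = 0.352) and S100A9 by -1.03 ± 0.43 (adjusted p = 0.196). Over arrays, S100A8 was higher than in B7 by 1.54 in D6, 1.28 in E1, 1.31 in E2 and 1.49 in E6, with adjusted p-values up to 5.16e-07. In E3 it was lower, by limma at -0.31 ± 0.08 (adjusted p = 0.0069). E3 differed from the mean of the other 4 tolerant clones by -1.71 ± 0.06 (adjusted p = 5.28e-08), 3.27-fold. S100A9 was lower than in B7 in all 5 clones over arrays, from -0.47 in E2 (adjusted p = 0.000661) to -1.73 in E3 (adjusted p = 2.51e-08). In E3 both calprotectin subunits were lower than in B7. Their clone means correlated at r = 0.12 over the 6 clones (Pearson, Spearman 0.20) and at 0.80 over the 5 tolerant clones, where E3 was lowest in both. Correlations here are descriptions over few clones on shared arrays, picked from 45 pairs of members. Over arrays the myeloid markers CD14 (0.76 to 2.06, adjusted p at most 8.49e-05) and CSF1R (0.74 to 2.16, adjusted p at most 0.000602) were higher than in B7 in all 5 clones, E3 included. CSF3R, near background, was also called higher in all 5. LYZ was called higher in D6, E1 and E6 alone and ITGAM in E1 and E6 alone. FCGR3A was called in no clone and lay at -0.47 in E1 (limma, adjusted p = 0.0774). Calls in all 5 clones were not limited to myeloid markers. The fibroblast marker COL1A1 (0.56 to 2.30, limma, adjusted p at most 0.00306) and the endothelial marker CDH5 (0.52 to 1.83, at most 0.00464) were also higher in each. The fibroblast marker DCN and the lymphoid markers CD2, MS4A1 and CD79A were called in no clone. The endothelial marker PECAM1 was called lower in E3 and higher in E6. Of all genes, 24.5% (E2) to 32.4% (E1) were called higher at this level. Between clones 6 of the 7 myeloid markers were tested and 0 passed by limma, with 2 at an unadjusted p under 0.05, CD14 at 1.22 ± 0.45 (adjusted p = 0.156) and CSF1R at 1.43 ± 0.58 (0.185). PTPRC was detected on 0 arrays and CSF3R on at most 2, while CD14, CSF1R and LYZ were detected on all 12. The summed signal of the myeloid probes ran from 252 intensity units (B7) to 768 (E1), with 416 the lowest in a tolerant clone, and its part in these values was not tested.

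**Figure D2:**
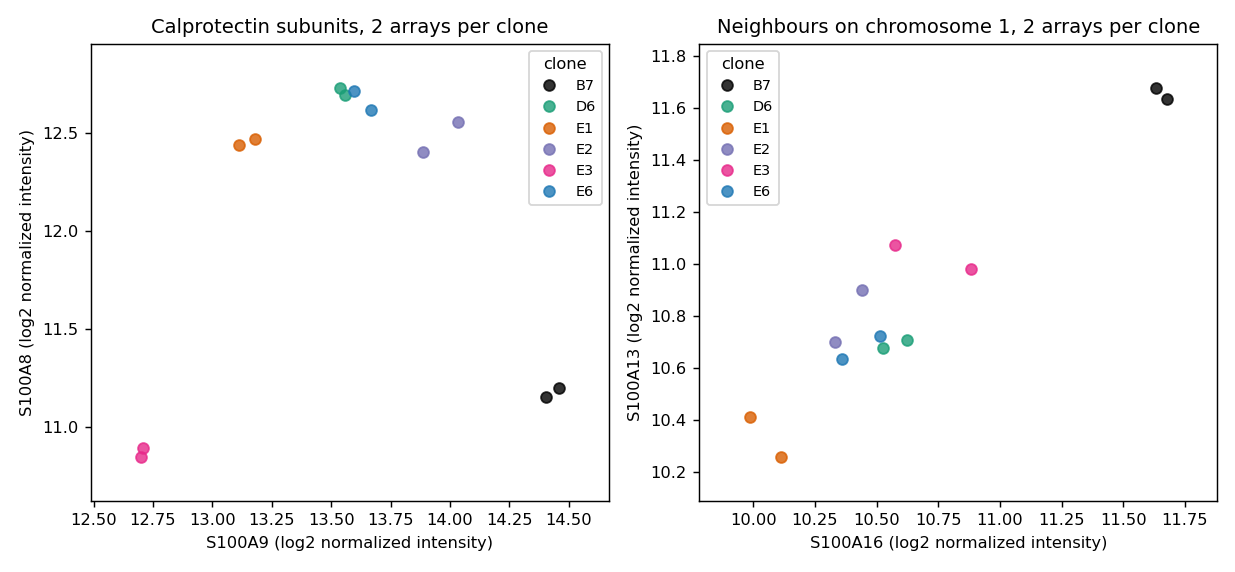
Log2 normalized intensity of S100A8 against S100A9 (left) and of S100A13 against S100A16 (right), 1 point per array, coloured by clone. On the left E3 is low in both genes and B7 is low in S100A8 and highest in S100A9. On the right B7 lies far above the tolerant clones in both genes, with E1 lowest.

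S100A16 and S100A13, close neighbours in the cluster, were lower in every tolerant clone and ran together. S100A16 codes for a broadly expressed member. It stood at 11.68 and 11.63 on the B7 arrays, and the tolerant clone means ran from 10.05 in E1 through 10.39 in E2, 10.44 in E6 and 10.58 in D6 to 10.73 in E3. No tolerant array reached B7, and the difference between clones was -1.22 ± 0.27 (SE, limma, adjusted p = 0.0617), which did not pass. It passed under 4 alternatives: median scaling (-1.61, adjusted p = 0.0392), without E2 (adjusted p = 0.0337), and the clone as a random block without and with the replicate number (0.00999 and 0.0158). Over arrays it was lower in each clone, from -0.93 in E3 to -1.61 in E1 (adjusted p at most 3.53e-05).

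S100A13, whose protein takes part in the release of FGF1 and interleukin 1 alpha from cells, stood at 11.63 and 11.68 in B7. The tolerant clone means were 10.33 in E1, 10.68 in E6, 10.69 in D6, 10.80 in E2 and 11.03 in E3, with no overlap with B7. The difference between clones was -0.95 ± 0.26 (SE, limma, adjusted p = 0.0978). Over arrays each clone was lower, from -0.63 in E3 (adjusted p = 0.000158) to -1.32 in E1 (adjusted p = 3.84e-07). For both genes E3 was the highest tolerant clone and E1 the lowest, and the clone means correlated at r = 0.98 over the 6 clones (Pearson, Spearman 0.83) and at 0.91 over the 5 tolerant clones. S100A14, which lies between S100A16 and S100A13, did not run with them. Its Pearson r with S100A13 was 0.01 over the 6 clones and -0.96 over the 5 tolerant clones, and with S100A16 0.17 and -0.78. By its brightest probe S100A13 ran opposite to S100P, with the order of the clones exactly turned (Spearman -1, Pearson -0.96, and -0.85 over the 5 tolerant clones). The S100A13 steps from E3 to E2, to D6 and to E6 did not pass over arrays (limma, adjusted p = 0.074 to 0.925). Nor did the S100P steps between E1 and E6 (0.522) and between E2 and E3 (0.661). At the other bright probe of S100A13, E2 (10.60) lay below E1 (10.64), so there E1 was not the lowest and the order was not exactly turned. Nor was it exactly turned with median scaling, where E6 was highest in S100P and E1 was lowest in S100A13. Of the 2 cargoes on the partner list, IL1A differed by -4.73 ± 0.42 between clones (limma, adjusted p = 0.00734), and FGF1 was detected on 0 B7 arrays and 3 tolerant arrays, with no fold given.

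S100A13 had 6 probes, and they did not all tell the same size. The probes detected on all 12 arrays differed by -0.95, -0.75 and -1.81, each lower in all 5 clones. A probe detected on 10 arrays differed by -0.21, with 0.06 in E2. The last 2, detected on 0 and 1 arrays, were below the filter. S100A1, which lies within the span of S100A13, was detected on 0 arrays. S100A10 had 2 probes, which differed by 0.48 and 0.78 and were higher in all 5 clones. The remaining members had 1 probe each.

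**Figure D3:**
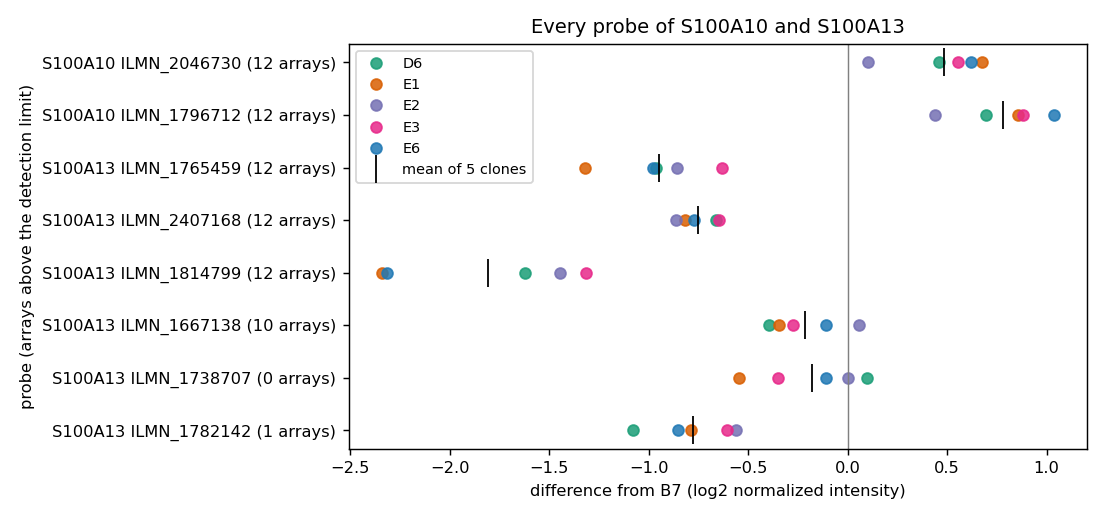
Difference from B7 in log2 normalized intensity (horizontal axis) for every probe of S100A10 and S100A13 (vertical axis, with the number of arrays on which it was detected). Dots are tolerant clones and the black bar is their mean. Both S100A10 probes lie above 0 in every clone, and the 3 bright S100A13 probes lie below 0 in every clone.

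The annexin-binding members S100A10 and S100A11, measured by their brightest probes with quantile normalization, were above B7 over arrays in D6, E1, E3 and E6, and the calls depended on the probe and the scaling. S100A10, also called p11, forms a complex with annexin A2 at the plasma membrane and has lost calcium binding. It stood at 14.01 and 13.91 in B7, 14.06 in E2, 14.42 in D6, 14.52 in E3, 14.58 in E6 and 14.64 in E1 as clone means. Between clones it differed by 0.48 ± 0.25 (SE, limma, adjusted p = 0.27). E2 and B7 did not differ beyond the spread between arrays (adjusted p = 0.293), while the other 4 were above B7 by 0.46 to 0.67 (adjusted p at most 0.00031). The other S100A10 probe was higher in E2 as well, by 0.44 ± 0.08 (limma over all kept probes, adjusted p = 0.00147, a test added after seeing the data). With the mean over both probes the difference in E2 was 0.27 (adjusted p = 0.00607). With median scaling, D6 did not pass for S100A10 (0.20, adjusted p = 0.0669).

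S100A11, which binds annexin A1, stood at 11.97 and 11.98 in B7, with clone means of 11.83 in E2, 12.46 in E6, 12.54 in D6, 12.55 in E1 and 12.76 in E3. Between clones it differed by 0.45 ± 0.33 (SE, limma, adjusted p = 0.431), and by 0.10 with median scaling (adjusted p = 0.853). Over arrays it was called higher in D6 (0.57), E1 (0.57), E3 (0.78) and E6 (0.49). With median scaling E3 alone was called higher (0.53, adjusted p = 0.000278), D6 lay at -0.02 (adjusted p = 0.891) and E2 was lower (-0.28, adjusted p = 0.0219). With quantile normalization E2 was below the mean of the other 4 tolerant clones by limma at -0.75 ± 0.06 (adjusted p = 1.50e-06), and S100A10 showed the same at -0.47 ± 0.06 (adjusted p = 6.69e-05). The annexins measured beside them did not pass between clones: ANXA2 differed by -0.50 ± 0.32 (adjusted p = 0.361) and ANXA1 by -0.31 ± 0.60 (adjusted p = 0.785). E2 had the lowest clone mean of both, at 12.58 for ANXA2 and 10.42 for ANXA1. Of the other annexins tested, ANXA5 was highest among the tolerant clones in E2 (12.78), and ANXA11 was lowest in B7 (9.63), with E2 at 9.75.

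S100A6, or calcyclin, whose partner is the calcyclin-binding protein CACYBP, was also lowest in E2. Its B7 arrays stood at 13.48 and 13.48, and the clone means were 13.40 in E6, 13.37 in E1, 13.32 in E3, 12.93 in D6 and 12.44 in E2. B7, E6, E1 and E3 did not differ from their neighbours in this order (adjusted p = 0.481 to 0.842), while D6 was below E3 (adjusted p = 0.011) and E2 below D6 (0.00166). Between clones the difference was -0.39 ± 0.37 (SE, limma, adjusted p = 0.554), and E2 lay at -0.81 ± 0.08 from the other 4 (adjusted p = 8.66e-06). The step from D6 to E2 depended on the scaling. Against B7, D6 lay at -0.54 and E2 at -1.03 with quantile normalization, but at -0.96 and -1.05 with median scaling. With median scaling the step between D6 and E2 was not tested. CACYBP itself differed by -1.28 ± 0.36 between clones (adjusted p = 0.0981) and was lower in each of the 5, least in E2 (-0.71).

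S100A14, an epithelial member that is a direct neighbour of S100A13 and S100A16, was called lower in E2 and E3 alone. It stood at 8.91 and 9.13 in B7 and at clone means of 9.03 in E1, 8.80 in E6, 8.74 in D6, 8.46 in E2 and 8.29 in E3. The arrays of B7 and E1 overlapped, and none of the 5 steps between neighbouring clones passed (limma, adjusted p = 0.127 to 0.973). Between clones it differed by -0.36 ± 0.29 (adjusted p = 0.474), and over arrays E2 (-0.56, adjusted p = 0.00833) and E3 (-0.73, adjusted p = 0.00119) were below B7. With median scaling it was called lower in all 5 clones, from -0.41 in E1 (adjusted p = 0.0211) to -1.03 in E3. S100A2, a p53-binding member of squamous and basal epithelium, was close to the background. It was detected on both B7 arrays (6.10 and 6.45) and on 1 of the 10 tolerant arrays, 1 of the pair of E3 (6.07), so the size of its difference (-0.71 ± 0.21, adjusted p = 0.104) rests on values near the limit. S100A2 thus passed the detection filter through B7 alone, which favours a lower value in the tolerant clones. It was the 1 member that did not pass the test among the tolerant clones (moderated F, adjusted p = 0.68).

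**Figure D4:**
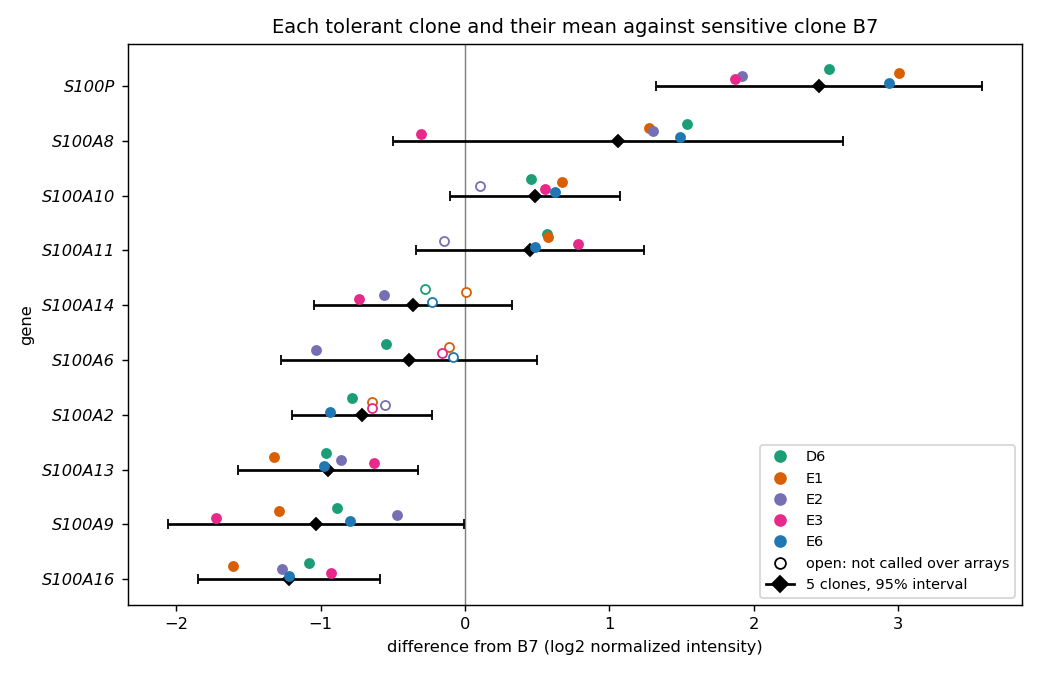
Difference from B7 in log2 normalized intensity (horizontal axis) for each S100 gene (vertical axis). Dots are the 5 tolerant clones, filled where called over arrays, and black diamonds are their mean with the 95% interval from the clone-level fit. The interval of S100P runs from 1.32 to 3.58, and S100A8 in E3 lies at -0.31 while the other 4 clones lie at 1.28 to 1.54.

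Clone by clone, most members were called against B7 over arrays, as most genes were. D6 had 4 members higher and 5 lower, where 64.4% of all genes were called, 32% higher and 32.4% lower. E1 had 4 higher and 3 lower (32.4 and 33.1% of all genes, 65.5% together). E2 had 2 higher, S100P and S100A8, and 5 lower (24.5 and 22.7%, together 47.1%). E3 had 3 higher and 5 lower (29.5 and 30%, together 59.6%), and E6 4 higher and 4 lower (30.1 and 31.3%, together 61.4%). These comparisons share the B7 arrays. S100P was called higher and S100A9, S100A13 and S100A16 were called lower in each of the 5 clones, with quantile normalization, median scaling and the mean over probes. The share of all genes called the same way in all 5 clones was not counted, so these members cannot be set against it. Which other members were called in all 5 depended on the processing: none as reported, S100A10 (higher) with the mean over probes, and S100A6 and S100A14 (lower) with median scaling. Median scaling also moved the split of higher and lower members, to 2 higher and 6 lower in each of D6 and E2, 3 higher and 6 lower in each of E1 and E6, and 3 higher and 7 lower in E3. It moved the split of all genes as well: between clones 28.6% of the called genes were higher, in place of 49.3%. The shares of all genes over arrays were not counted with median scaling.

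Among the 5 tolerant clones, 9 of the 10 members differed by the moderated F test over arrays (limma, adjusted p = 9.00e-08 for S100A8 to 0.0059 for S100A14), where 73% of all genes did. The range of the tolerant clone means was 0.38 log2 units for S100A2, 0.57 for S100A10 and 1.85 for S100A8, with a median of 0.83 over the members and 0.59 over all genes. For S100A8 the range was larger than or equal to that of 95.8% of the genes tested. Against the other 4 tolerant clones, E1 had 6 members higher and 3 lower (24 and 22.3% of all genes, together 46.3%), among them S100P at 0.70 and S100A13 at -0.46. E2 had 2 higher, S100A8 and S100A9, and 4 lower, S100A6, S100A10, S100A11 and S100P (26.4 and 26.7% of all genes, together 53.2%). E3 had 4 higher and 4 lower (15.5 and 16.3%, together 31.7%), with S100A8, S100A9, S100A14 and S100P as the lower ones. D6 had 2 higher, S100A8 and S100A9, and 0 lower (18.2 and 19.8%, together 38%, with 4 members at an unadjusted p under 0.05). With median scaling D6 had 1 higher and 3 lower, a setting for which the share of all genes was not counted. E6 had 5 higher and 0 lower (16.5 and 16.4%, together 32.9%, with 5 members at an unadjusted p under 0.05).

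Of the 11 other S100 genes, 5 passed the detection filter and 6 were detected on 0 arrays, S100A1, S100A7A, S100A7L2, S100B, S100G and S100Z. By limma 0 of the 5 passed between clones, with 1 at an unadjusted p under 0.05. S100A4, a motility-linked member, had the largest difference, 1.55 ± 0.66 (adjusted p = 0.198), with clone means of 6.41 in B7, 7.02 in E2, 7.26 in D6, 8.28 in E3, 8.51 in E6 and 8.72 in E1. S100A3 differed by -1.01 ± 0.25 (adjusted p = 0.0795) and was detected on 5 arrays. Of 13 binding partners measured, 1 fell, IL1A, and 0 rose, with a median of -0.36. Of 5 receptors, 0 passed by limma, with 2 at an unadjusted p under 0.05. TLR4 was measured above background in B7 and on 0 of the tolerant arrays, with a difference of at least 1.27-fold (lower, adjusted p = 0.0773), and NPTN, a receptor for S100A8, differed by 0.72 ± 0.22 (adjusted p = 0.116). For such a bound, each array of the undetected group counted as its own value or as the dimmest detected probe of that array, whichever was higher. An adjusted p printed beside a bound is that of the limma difference with the undetected values kept, not of the bound. RAGE (AGER) was detected on 0 B7 arrays and on 7 tolerant arrays and was at least 1.08-fold higher by the same kind of bound set on B7, which did not pass (adjusted p = 0.261). Of 7 fused-type S100 genes, which join an S100 domain to long repeats, 5 were detected on 0 arrays. Of the 2 tested 0 passed by limma, with 0 at an unadjusted p under 0.05. TCHH and TCHHL1 were detected on 0 B7 arrays and on 6 and 2 tolerant arrays, so TCHH was at least 1.13-fold higher, which did not pass (adjusted p = 0.561), and no fold is given for TCHHL1.

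Genes around the cluster on chromosome 1 are set beside the 2.83% of all genes that were called between clones. In RefSeq gene order, 10 protein-coding genes before S100A10 and 10 after the last S100A gene gave 15 tested genes. By limma 0 of them passed, with 2 at an unadjusted p under 0.05, and their differences ran from -0.61 (DENND4B) to 0.97 (SLC27A3), with a median of -0.12. Of the 47 other genes within the cluster 10 were tested and 1 was called, LCE3D of the cornified envelope. It was detected on 0 tolerant arrays and fell at least 1.44-fold between B7 and the tolerant clones (adjusted p = 0.0337). The cornified envelope gene SPRR1A differed by 3.05 ± 0.88 (adjusted p = 0.104). Among the 9 members of the cluster, S100A8, S100A10 and S100A11 had differences above 0 and the other 6 below 0.

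**Figure D5:**
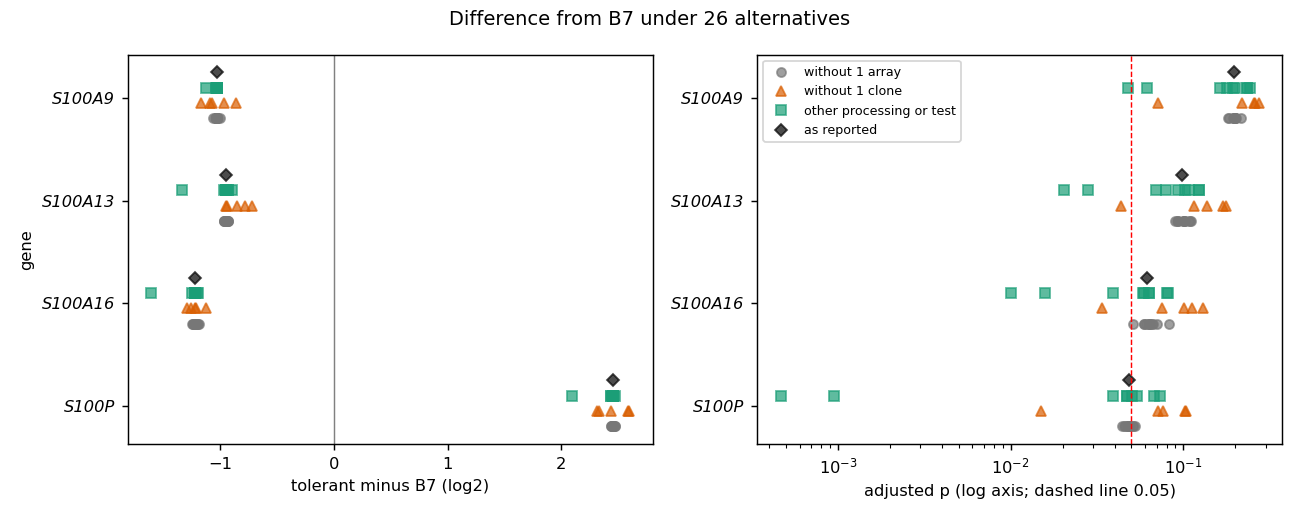
Difference between tolerant clones and B7 in log2 units (left) and its adjusted p (right, log axis, dashed line at 0.05) for S100P, S100A16, S100A13 and S100A9, as reported and under 26 alternatives. All differences keep their sign. The adjusted p of S100P lies on both sides of 0.05, from 0.000466 to 0.103.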

How the data were processed

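Per the file headers, the deposited scanner file holds signal intensity per probe on a linear scale, and its values show that the background was already subtracted (26.6 to 28.4% below 0). It has detection p-value columns, of which 0 cells hold a value. The deposited processed table holds the authors' intensity normalized between arrays, floored at 20, and its method is not given in the sources used here. The scanner signal was corrected by normexp (saddle-point fit, offset 16), quantile normalized and put on a log2 scale (limma 3.58.1, R 4.3.3). A probe counted as detected above 2.33 times the root mean square of the negative values of its array (8.63 to 10.3), and 21897 probes, detected on both arrays of some clone, were used. Probes were named by the annotation table and Entrez numbers: 30112 had 1 gene, 8 several and 17109 none. The main test was limma on 6 clone means (4 residual degrees of freedom, which takes the spread of B7 to be that of the other clones). The other was limma on 12 arrays (6 residual degrees of freedom). Tests were 2-sided, and a gene was called where its Benjamini-Hochberg adjusted p over all 12244 genes was under 0.05. The number of arrays limits the precision.

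All members, the genes called from the partner, receptor and family lists or the 2 largest, called neighbours of the cluster, and the 3 genes most like a member are named. SPRR1A, DENND4B, SLC27A3, ANXA1, ANXA2, ANXA5, ANXA11, CACYBP, FGF1, AGER and markers were named after their values were seen. The members and lists were chosen with earlier results of these data known. Alternatives were the authors' values, median scaling, no filter, no background correction, an intensity trend, the mean over probes, the clone as a random block, the replicate number as a block, an offset of 50, and leaving out each array or clone. Same-numbered arrays of different clones did not deviate together (correlations -0.03 to 0.05), so the numbers do not pair them.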

Additional observations from a re-analysis of the deposited data

Results flagged for a closer look

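S100A8 in E3 lay far below the other 4 tolerant clones: the gap to its nearest neighbour was 0.859 of the range of the 5 clone means, above the critical value of 0.71. It was the 1 of 10 members for which this was so, and chance flags about 1 in 20 groups.

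The difference from B7 varied between the 5 tolerant clones for 9 members in a limma F test over arrays, where 73% of all genes did. The adjusted p was 3.69e-05 for S100A6, 9.00e-08 for S100A8, 2.23e-06 for S100A9, 0.000393 for S100A10 and 1.07e-05 for S100A11. It was 0.000821 for S100A13, 0.0059 for S100A14, 0.00265 for S100A16 and 1.32e-06 for S100P. For S100A8 the sign itself differed, with E3 below B7 and the other 4 clones above it.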

How the results depend on the processing

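Over 26 alternatives each of the 10 members kept the sign of its difference between tolerant clones and B7. The number of members called, 1 as reported, was 0 with no background correction, the authors' values, no filter or an offset of 50, and 0 without clone D6, E1, E3 or E6. It was 2 with median scaling, 4 without E2 and with the clone as a random block, and 3 with the replicate number as a block beside the random clone. Without single arrays it was 0 to 1. S100P was lost in 11 of the 26. Without E2, S100A2 (adjusted p = 0.0498), S100A13 (0.0435, at its other bright probe, which is then the brightest) and S100A16 (0.0337) passed, and with the random block S100A9 (0.0478), S100A13 (0.0203) and S100A16 (0.00999). Genes called in all, 347 as reported, were 1785 with the random block and 1629 with the replicate block beside it, 82 and 86 when E3 or E6 was left out, 162 and 180 for D6 or E1, 2128 for E2, and 299 to 387 without single arrays. The cause was not tested.

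Over arrays, the total of members called against B7 stayed within 1.5 times the reported count in each clone, while median scaling moved its split, in D6 from 4 higher and 5 lower to 2 and 6 and in E1 from 4 and 3 to 3 and 6, and 9 of 10 differed among the tolerant clones under each of the 19 alternatives run at that level. Median scaling moved the split of all called genes as well, between clones from 49.3 to 28.6% higher. D6 against the other 4, 2 members as reported, gave 4 with median scaling, 1 with the authors' values and 1 with no filter. Without single arrays it gave 1 to 2, E3 gave 5 to 8 and E6 3 to 5, as reported 8 and 5. The shares of all genes called over arrays were not counted under the alternatives. The array-level counts of members therefore cannot be set against all genes there. In the array-level fit the replicate number as a block changed none of these counts by over 1.5 times. Chosen after seeing the data were all array-level alternatives for a clone against the other 4 and among the tolerant clones, and for a clone against B7 those with no filter and without single arrays or clones. S100A2 and S100A3 lie near the detection limit, so the size of their differences is uncertain.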
